A study of Homo sapiens with 4 samples.

Results

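The 52 tight junction and cell polarity genes described here were chosen by their function. They comprised 20 claudins, 3 MARVEL proteins, 3 JAM proteins, 4 plaque proteins, 4 Crumbs complex genes, 5 PAR complex genes, 4 Scribble complex genes, EPCAM, 4 catenins, and a group of 4 genes for nectins and afadin. A tile of 1000 bp was assigned to a gene when it overlapped the span of the gene or the 5 kb on either side. By this rule 182 of the 72455 tiles of the series belonged to the genes, and 4 tiles were each shared by a pair of neighbouring claudins. At least 1 tile in any table was found at 44 of the 52 genes. The same count over all protein-coding genes was not made, and the shares for each table are given below. All positions are on hg19, the same build as GRCh37, with genes and transcripts of GENCODE release 44. Of the 20136 protein-coding genes of the annotation, the median length was 27.2 kb, against 35.4 kb for the 52 genes, 9 of which were longer than 200 kb.

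Tight junctions seal the space between neighbouring epithelial cells, and the polarity complexes set the border between the apical and the basolateral membrane. Claudins and the MARVEL proteins span the membrane and form the junction strands, JAM proteins and nectins bind their partners on the next cell, and the plaque proteins tie the strands to actin. The Crumbs, PAR and Scribble complexes hold each other in place along the side of the cell. These proteins are known to be lost or moved when epithelial cells take on a mesenchymal state. Methylation of a CpG island at a promoter is known to go with a silent gene, whereas methylation within gene bodies has no such fixed relation.

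SKOV3 is a widely used human cell line from an ovarian cancer, and LY75 (DEC-205) is a cell surface receptor. The study asked which methylation changes accompanied the shift from a mesenchymal-like (M) to an epithelial-like (E) phenotype on loss of LY75. RRBS (bisulfite sequencing of short MspI fragments) was made on 4 libraries, 1 for each SKOV3 clone. The M clones were shC-S, with a control shRNA, and LY75-R-S (titled Ly75-OV-S), in which the LY75 knockdown cells re-expressed LY75 from a cDNA that resists the shRNA. The E clones were sh-LY75-S, with LY75 suppressed by shRNA, and LY75-KO-S, with LY75 inactivated by CRISPR. LY75-R-S thus came from sh-LY75-S cells, and both carry the LY75 shRNA. The tables hold differences only, with no level or read number for any library, so neither replicate error nor a test of the M against the E clones can be given, and the depth is unknown. Each comparison of single clones set 1 library against 1 other, so in it clone and LY75 status cannot be told apart. Neither LY75 expression nor epithelial markers can be checked in them.

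Of the 3 deposited tables, 1 compared shC-S with sh-LY75-S (below, the knockdown comparison), 1 compared LY75-R-S with LY75-KO-S (the knockout comparison), and the mixed comparison set the E clones against the M clones. Each value is the percent methylation of one side minus that of the other, given in points, and a positive value is read as hypermethylation in the E clone. Only tiles with a difference of at least 25 points and a q-value (adjusted p-value) of at most 0.01 were listed, so a gene without a tile may be unchanged, below the threshold or not covered. The q-values compare libraries, not conditions. For the knockdown comparison the sign was checked with 8 genes that the study names with a direction. CLDN5 and the RAMP gene, also named with a direction, were left out. The sign was read at the largest tile within 2 kb of the canonical start site, and all 8 genes had the stated direction. For the knockout comparison it rests on the composition of the mix: over the 4250 tiles in all tables, a least-squares fit weighted the knockdown difference by 0.534 and the knockout difference by 0.435, both positive. The name under which this comparison was deposited points the other way: it puts LY75-KO-S first, whereas that of the knockdown comparison puts the M clone first. Read by the order of names, or with the mix grouped otherwise, every sign of the knockout comparison would turn.

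The sequences below are from 4 of 6 promoters. At these 6 the canonical start site lay in a tile with a difference of at least 50 points in a comparison of single clones. Each sequence is the part of the 250 bases upstream of the canonical start site that overlaps no annotated untranslated region. It was read from GRCh37 in the direction of the gene, with each CpG, the kind of site that was measured, in capitals. Which CpGs the reads covered is not known, and all CpG numbers given here are counts from the genome sequence.
MARVELD2 (chr5:68710693-68710891, plus strand): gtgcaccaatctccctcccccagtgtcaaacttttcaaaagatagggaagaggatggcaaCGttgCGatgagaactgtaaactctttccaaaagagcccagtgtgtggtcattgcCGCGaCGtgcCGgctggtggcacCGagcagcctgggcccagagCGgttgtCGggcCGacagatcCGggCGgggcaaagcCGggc
CRB3 (chr19:6464225-6464281, plus strand): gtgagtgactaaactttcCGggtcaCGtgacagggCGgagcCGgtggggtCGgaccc
CLDN11 (chr3:170136406-170136655, plus strand): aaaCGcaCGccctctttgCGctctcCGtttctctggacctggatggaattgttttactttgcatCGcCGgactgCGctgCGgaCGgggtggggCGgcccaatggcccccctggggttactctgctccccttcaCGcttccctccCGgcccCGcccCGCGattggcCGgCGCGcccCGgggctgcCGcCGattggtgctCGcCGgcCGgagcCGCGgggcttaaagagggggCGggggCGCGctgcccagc
CLDN10 (chr13:96204724-96204973, plus strand): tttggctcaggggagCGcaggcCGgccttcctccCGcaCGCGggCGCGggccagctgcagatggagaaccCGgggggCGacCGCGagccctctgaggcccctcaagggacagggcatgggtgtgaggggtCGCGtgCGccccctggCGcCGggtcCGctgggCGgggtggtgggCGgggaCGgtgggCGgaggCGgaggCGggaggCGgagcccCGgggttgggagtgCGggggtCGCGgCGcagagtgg
The tiles of all 6 promoters came from the knockdown comparison. The difference was 97.9 at MARVELD2, 78.0 at CRB3 and 56.1 at CLDN10, which were hypermethylated in sh-LY75-S, and −91.9 at CLDN5, −66.7 at JAM3 and −58.6 at CLDN11, which were hypomethylated. The full 250 bases held 29 CpGs each at CLDN10 and CLDN11, 25 at CLDN5, 20 each at CRB3 and JAM3 and 19 at MARVELD2, where the median was 20 over the 52 genes and 18 over the 19845 protein-coding genes with a canonical start site.

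The MspI site CCGG, which reads the same on both strands, occurred in this upstream window at 41 of the 52 genes (78.8%), and at 72.7% of all protein-coding genes. The E-box CAGGTG, which SNAI and ZEB repressors of epithelial genes are known to bind, was searched on both strands and found at 13 of the 52 genes (25%), and at 17.4% of all. CRB3, the apical membrane protein of the Crumbs complex, held 5 copies, more than any other of the 52 genes, CLDN7 held 4, and EPCAM, F11R and MARVELD3 held 3 each. The Grainyhead motif AACCGGTT, which includes a CCGG, occurred at none of the 52 genes and at 0.141% of all. A match of letters is no binding site, and its absence from this window says nothing of the factor.

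In the knockdown comparison 39 of the 52 genes (75%) had a listed tile, where 60.3% of all protein-coding genes had one. The corresponding count was 31 genes (59.6%) in the knockout comparison, against 46.8% of all genes, and 27 genes (51.9%) in the mixed comparison, against 38.3%. Longer genes hold more tiles, so the tiles themselves were also counted, among those that MspI fragments of 40 to 220 bp with reads of 50 bp can reach. Of 1110 reachable tiles of the 52 genes, 117 (10.5%) were listed in the knockdown comparison, 62 (5.59%) in the knockout comparison and 37 (3.33%) in the mixed comparison. Over all protein-coding genes these shares were 11.6%, 6.15% and 4.85%. By tile, then, the junction and polarity genes lay close to or below the background in each table.

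**Figure D1:**
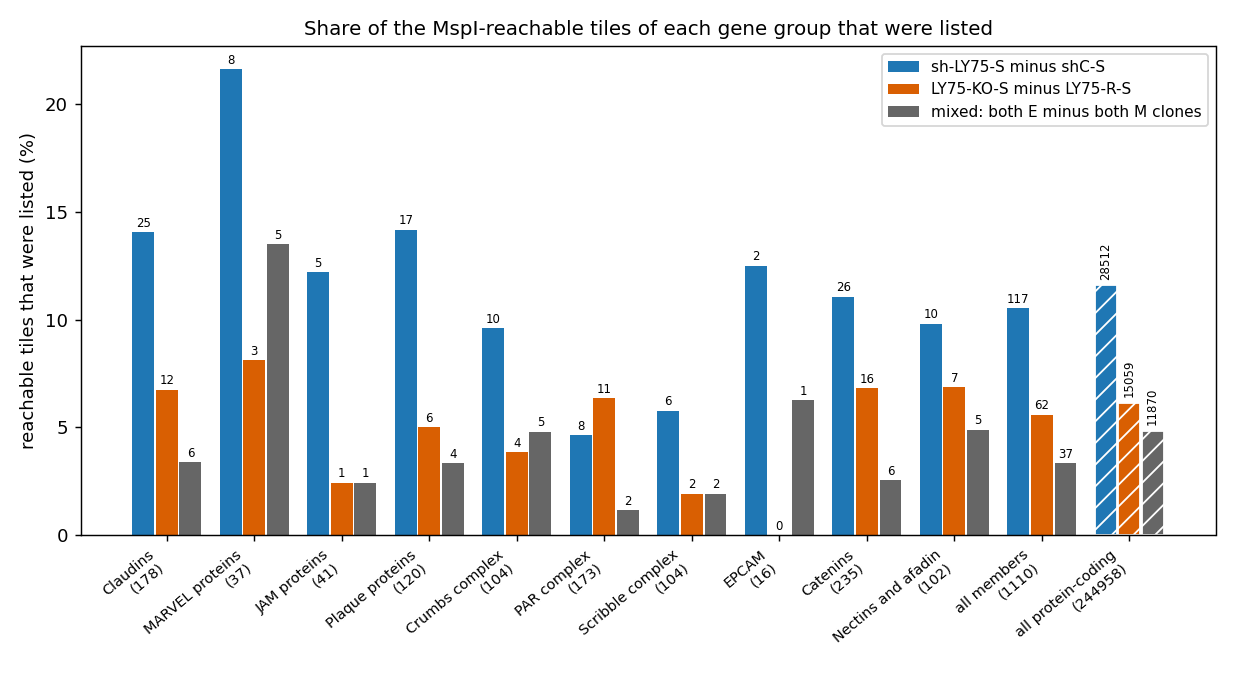
Share of the tiles within reach of MspI fragments that were listed (y axis, in percent), for each gene group and for all protein-coding genes (hatched), with the number of reachable tiles in parentheses and the number of listed tiles above each bar. Over all members 117, 62 and 37 of 1110 reachable tiles were listed in the knockdown, knockout and mixed comparisons.

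Tiles within 2 kb of a start site were found at 23 genes (44.2%) in the knockdown comparison, where 30.2% of all protein-coding genes had one. There were 9 such genes (17.3%) in the knockout comparison, against 14.2% of all genes, and 9 (17.3%) in the mixed comparison, against 15.2%. Every start site of a basic transcript was used, and neither their number nor the reachable tiles near them were adjusted for. With canonical start sites only, 21, 5 and 8 genes had such a tile in the same order, without a count over all protein-coding genes. The promoter tiles went both ways. Counted once for each gene, 18 were hypermethylated and 22 hypomethylated in the knockdown comparison, 5 and 5 in the knockout comparison, and 3 and 8 in the mixed comparison. None of the promoter tiles of the knockout comparison reached 50 points, whereas those of the knockdown comparison had a median absolute difference of 50.6 points. Over all listed tiles the median was 50.0 points in the knockdown and 41.9 points in the knockout comparison. Neither the direction nor the size of promoter tiles was counted over all protein-coding genes. Neither is therefore known to be particular to these genes.

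Over all places, the knockdown comparison held 129 tiles of these genes, 73 hypermethylated and 56 hypomethylated. The hypermethylated share was 56.6% (95% Wilson interval 48.0 to 64.8, counting error only), where 64.7% of all listed tiles were hypermethylated. In the knockout comparison 39 of 69 tiles (56.5%, 44.8 to 67.6) were hypermethylated, against 54.7% of all tiles. The mixed comparison had 26 of 41 (63.4%, 48.1 to 76.4), against 65% of all tiles. The median absolute difference was 50.0, 39.0 and 35.1 points in the same order, and 50.0, 41.9 and 36.9 points over all listed tiles. A complete difference of 100 points occurred at 19 tiles in the knockdown comparison, at 8 in the knockout comparison and at 0 in the mixed comparison, of 129, 69 and 41 tiles. Over all listed tiles of the series the share was 13.1%, 9.37% and 0.486%, so these counts were near the background. As a level lies between 0 and 100%, such a tile was fully methylated in the reads of one clone and unmethylated in those of the other.

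**Figure D2:**
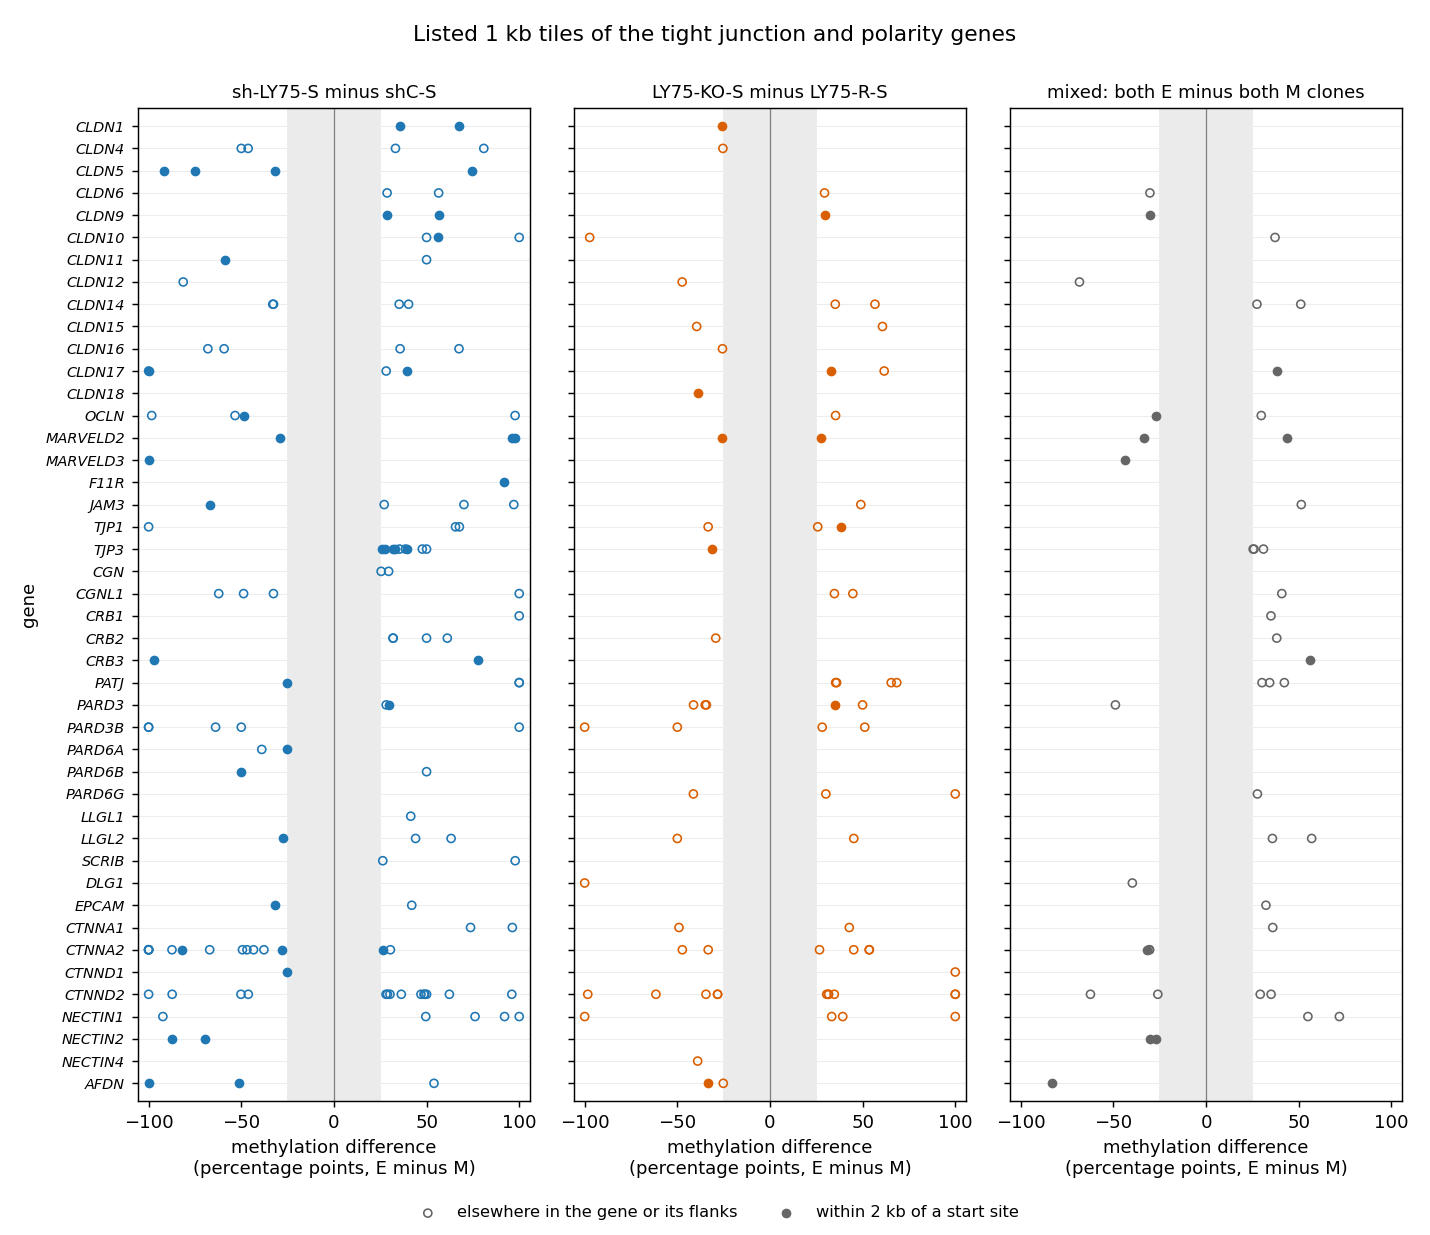
Difference in percent methylation (x axis, percentage points, E minus M) of every listed tile of the 44 genes with at least 1 tile (y axis), in the knockdown, knockout and mixed comparisons. Filled points lie within 2 kb of a start site, and the grey band marks differences under 25 points, which were not listed. Points lie on both sides of 0 in each panel, 73 above and 56 below in the knockdown comparison.

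Claudins, whose extracellular loops make the barrier or the pores of the junction, had 28 tiles in the knockdown comparison (15 hypermethylated, 13 hypomethylated) and 12 in the knockout comparison (6 and 6). At CLDN5, best known from the barrier of blood vessels, 3 adjacent tiles over the start site and the gene body (chr22:19510001-19513000) fell by 91.9, 74.7 and 32.0 points in sh-LY75-S. The tile of 91.9 points, which holds 108 CpGs, puts shC-S at 91.9% methylation or more and sh-LY75-S at 8.1% or less. A further tile 4.07 kb upstream, near another start site of the gene, was 74.4 points higher in sh-LY75-S. CLDN5 had no tile in the knockout or the mixed comparison.

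CLDN1, a sealing claudin, had a hypermethylated tile of 67.5 points in a coding exon by its start site in sh-LY75-S and another of 35.7 points upstream, and the exon tile was −25.6 in LY75-KO-S. Both tiles were also assigned to CLDN16, a claudin of magnesium reabsorption in the kidney. For CLDN16 the tile of 67.5 lies in the upstream flank and that of 35.7 in an intron, and its gene span begins between them. Both are 63.9 kb or more from the start sites of its basic transcripts, the only start sites counted here. CLDN16 had 2 more knockdown tiles, in an intron and a coding exon, at −68.0 and −59.3. CLDN9, a claudin of the inner ear, and its neighbour CLDN6, known from embryonic tissue, shared tiles at 56.5 points upstream of CLDN9 and at 28.7 points over its start site. That start-site tile was also hypermethylated in LY75-KO-S (29.4), yet the mixed comparison listed it at −30.3, where an equal-weight mean would be 29.1. Such a mismatch occurred at 3 of the 3513 tiles of the series that had 1 sign in both single comparisons and were listed in the mix (0.0854%).

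CLDN10, which forms ion pores, had 56.1 points at its canonical start site, 100 and 50.0 points in introns upstream of it (37.3 in the mix for the latter), and −97.3 points in another intron in the knockout comparison. CLDN11, the claudin of myelin and of the Sertoli cell barrier, had −58.6 points at the start site, in a tile of 75 CpGs, and 50.0 points in a later exon. CLDN17, an anion pore, differed over short distances: the knockdown comparison gave −100 at 878 bases upstream, 39.6 in the coding exon, 28.2 and −100 in the downstream flank, with 6 to 18 CpGs a tile. In LY75-KO-S the exon tile was 32.8 points and its neighbour 61.6 points higher, and the mix gave 38.5 for the exon. CLDN18 had its 1 tile over an alternative start site in the knockout comparison, at −39.0.

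The other claudins with tiles had them away from start sites. CLDN4, a barrier claudin, had 4 knockdown tiles from −50.0 to 80.9 and a knockout tile of −25.4, all over 4 kb upstream of the start sites of its basic transcripts. CLDN12 had an intron tile of −81.3 in the knockdown comparison (−68.3 in the mix) and another of −47.4 in the knockout comparison. CLDN14 had 4 knockdown tiles from −33.0 to 40.3 and 2 knockout tiles of 35.2 and 56.7, and CLDN15 had 60.7 and −39.5 in the knockout comparison alone. CLDN3, CLDN7, CLDN8, CLDN19, CLDN20, CLDN22 and CLDN23 had no tile in any table, with 1 to 10 reachable tiles each. The remaining gene without a tile was JAM2, with 8.

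The MARVEL proteins stand where strands cross or where cells meet. MARVELD2 (tricellulin), which closes the contact of adjoining cell corners, had the largest difference at a canonical start site of all 52 genes. Its adjacent tiles at the start site (chr5:68710001-68712000) were 97.9 and 95.9 points higher in sh-LY75-S, which puts sh-LY75-S at 97.9% or more and shC-S at 2.12% or less in the first tile. The second tile holds 72 CpGs and was 43.6 points higher in the mix. A tile 5.06 kb downstream, by another start site, went the other way in all tables, at −28.9, −25.6 and −33.3. Between them the knockout comparison had 27.8 points. At the 97.9 and 95.9 tiles themselves LY75-KO-S and LY75-R-S were not listed as different. MARVELD3 had 1 tile, 911 bases past a start site, at −100 in the knockdown comparison and −43.9 in the mix. OCLN (occludin), which gave the family its junction role, was −48.3 just upstream of a start site in the knockdown comparison (−27.2 in the mix), and 97.8, −98.3 and −53.4 at tiles farther downstream, with 35.4 in an intron in the knockout comparison.

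Among the JAM proteins, adhesion molecules of the immunoglobulin family, F11R (JAM-A) had 1 tile, 868 bases upstream of a start site, 91.6 points higher in sh-LY75-S. JAM3 (JAM-C) was −66.7 at the start site in the knockdown comparison, and 27.1, 70.2 and 97.1 points at 3.03 to 58.0 kb into the gene. The mix gave 51.4 for the tile of 70.2, and the knockout comparison gave 49.0 for a later coding exon.

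Of the plaque proteins, TJP3 (ZO-3) had 1 sign throughout the knockdown comparison. All 9 of its tiles there were hypermethylated, from 25.9 to 50.0 points, from the start site to 28.6 kb downstream, and the 3 of them listed in the mix were between 25.4 and 31.0. In the knockout comparison TJP3 had a single tile, the one at the start site, and it was −31.3. TJP1 (ZO-1), which ties claudins to actin, had knockdown tiles of 65.6, −100 and 67.7 in introns, and knockout tiles of 38.5 (within 2 kb of an alternative start site), 25.8 and −33.4. CGN (cingulin) had 29.5 and 25.5 points in coding exons in the knockdown comparison. Its relative CGNL1 (paracingulin) had 4 knockdown tiles, −32.6, −62.2 and −48.8 within the gene and 100 in the 3′ flank (40.9 in the mix), while the tile of −62.2 was 44.7 in the knockout comparison.

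**Figure D3:**
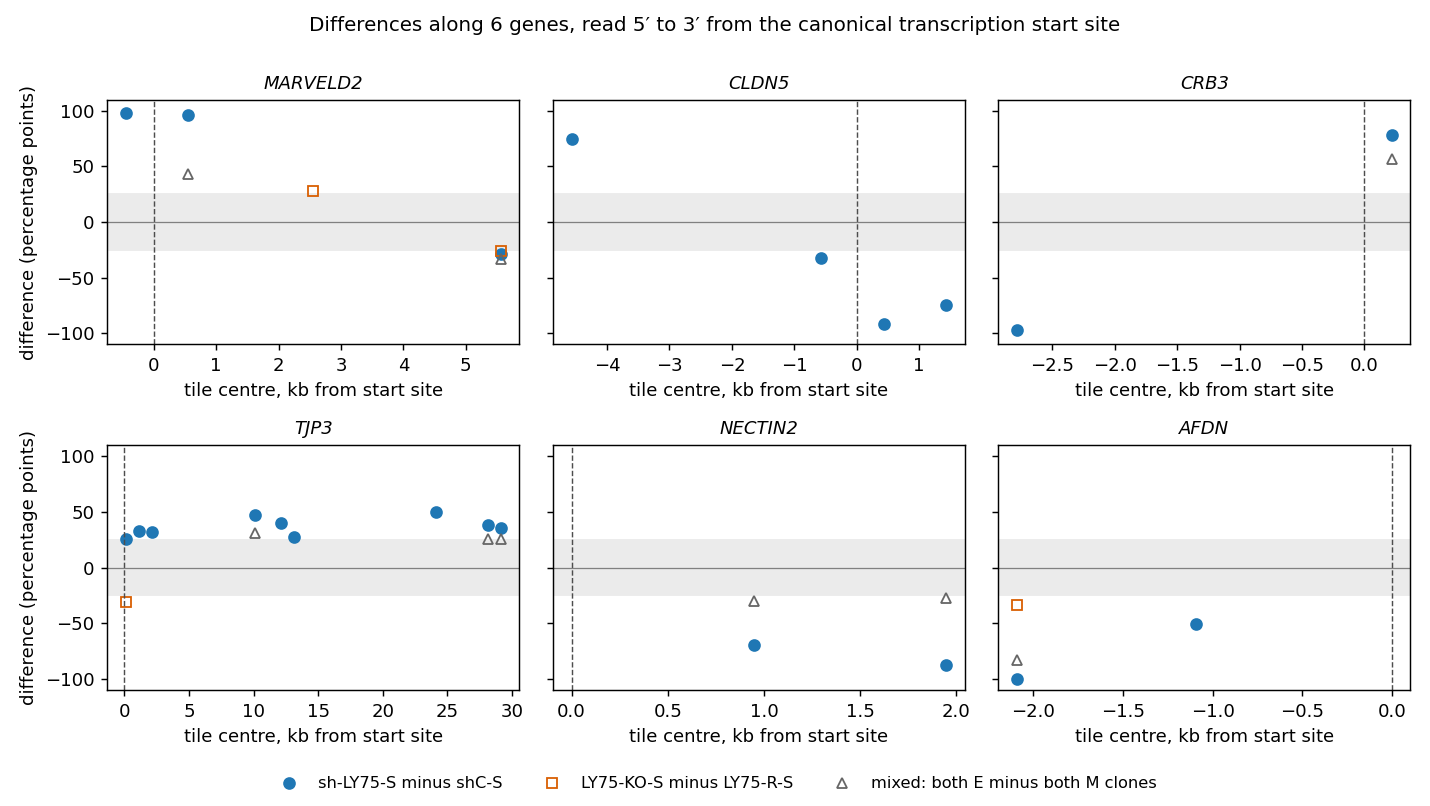
Differences (y axis, percentage points) by the distance of the tile centre from the canonical start site (x axis, kb, 5′ to 3′) for 6 genes, without the AFDN tiles 62.4 kb downstream and beyond. Filled circles are the knockdown, open squares the knockout and triangles the mixed comparison, and the grey band marks differences under 25 points. At MARVELD2 the knockdown values are 97.9 and 95.9 by the start site, at CLDN5 −91.9, and at TJP3 all 9 are positive.

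In the Crumbs complex, which marks the apical membrane, CRB3 had 78.0 points at its start site in the knockdown comparison, in a tile of 73 CpGs, and 56.3 in the mix. This puts sh-LY75-S at 78.0% or more and shC-S at 22.0% or less. A tile 1.79 kb upstream was −97.1, within 2 kb of the start site of the neighbouring gene SLC25A23. CRB2 had 4 hypermethylated knockdown tiles of 31.9 to 61.2 points, none near its start site, and the tile of 61.2, in a noncoding stretch of an exon, was −29.3 in the knockout comparison. CRB1 had an intron tile of 100 (35.1 in the mix). PATJ, the scaffold that joins Crumbs to the plaque, was −25.6 just upstream of its start site, a tile shared with the promoter of PATJ-DT, and 100 at each of 2 intron tiles in the knockdown comparison. All 4 PATJ tiles of the knockout comparison were hypermethylated, from 35.4 to 68.4, and so were its 3 tiles of the mix.

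The PAR complex directs the kinase aPKC to the apical side. PARD6B was −50.0 at 1.12 kb upstream of its start site and 50.0 in an intron in the knockdown comparison. PARD6A had −25.5 in a coding exon, a tile within 2 kb of the start site of ACD, and −38.9 in the 3′ flank. PARD3 had intron tiles of 29.7 and 28.2 in the knockdown comparison and 5 from −41.2 to 50.0 in the knockout comparison. PARD3B, a very long gene, had 5 and 4 tiles in the same order, from −100 to 100 and from −100 to 51.2, none near a start site. PARD6G had only knockout tiles, from −41.3 to 100, and 1 of 27.7 in the mix.

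The Scribble complex marks the basolateral side. LLGL2, its epithelial LGL protein, was −27.2 in an intron by its start site and 44.1 and 63.2 in later introns in the knockdown comparison. The tile of 63.2 was −50.0 in the knockout comparison, which listed 45.2 upstream of the gene. LLGL1 had 41.5 points in the upstream flank, and SCRIB had 26.4 and 97.8 in coding exons, all in the knockdown comparison. DLG1 had an intron tile of −100 in the knockout comparison and −39.8 in the mix. EPCAM, the epithelial adhesion molecule that stabilises claudins, was −31.7 in an intron, 551 bases past its start site in a tile of 56 CpGs, in the knockdown comparison. A second EPCAM tile, 11.5 kb upstream of the start site, was 42.0 (32.4 in the mix), and the knockout comparison had none of its 16 reachable tiles.

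Catenins link cadherins to actin or steady them at the membrane. CTNNA2, the neuronal alpha-catenin, lies over more than a megabase and had 12 hypomethylated and 2 hypermethylated tiles in the knockdown comparison. Its hypomethylated tiles ranged from −27.9, at the canonical start site, to −100 at 4 tiles. In the 3′ part of the gene (chr2:80772001-80776000) 3 tiles were at −100, −100 and −87.4, the last 2 of them adjacent. The tile after the first was not listed in the knockdown comparison. In the knockout comparison these neighbours, the first tile and the one after it, went the other way, at 53.7 and 53.5. The tile of −82.0 (−31.8 in the mix) and that of 26.3 lay within 2 kb of start sites of both CTNNA2 and LRRTM1, a gene within its intron. In the knockout comparison CTNNA2 had 4 hypermethylated tiles, 26.8 to 53.7, and 2 hypomethylated tiles, −47.3 and −33.3. CTNND2 (delta-catenin), also known from neurons, had 10 hypermethylated and 4 hypomethylated knockdown tiles, none within 2 kb of a start site, among them 62.3 in a coding exon with 93 CpGs and −87.3 in another with 12 (−62.4 in the mix). Its 11 knockout tiles ranged from −98.3 to 100, 6 of them hypermethylated. CTNNA1, the alpha-catenin of epithelia, had knockdown tiles of 96.3 in the upstream flank of the gene span and 73.7 in an intron. Both lay far upstream of the start sites of its basic transcripts, the only start sites counted here. The tile of 73.7 was 42.8 in the knockout comparison and 36.0 in the mix. Another knockout tile of CTNNA1 was −49.1. CTNND1 (p120), which holds E-cadherin at the membrane, had −25.5 by an alternative start site in the knockdown comparison and 100 in a coding exon in the knockout comparison.

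Nectins and afadin open the contact between cells before tight junctions form. Both tiles of NECTIN2 were intronic and within 2 kb of the start site (chr19:45350001-45352000), at −69.6 and −87.4 in the knockdown comparison and −30.0 and −26.9 in the mix. AFDN (afadin) had adjacent tiles upstream of its start site (chr6:168225001-168227000) at −100 and −51.1, the farther of which was −33.3 in the knockout comparison and −83.1 in the mix. Both lie within 2 kb of a start site of the divergent transcript AFDN-DT. Among promoter tiles of the 52 genes with at least 50 points, only this farther tile of AFDN had the same sign in every table. The mix holds the same libraries as the single comparisons, and such tiles were not counted over all protein-coding genes. The other tiles of AFDN were 54.0 in an intron in the knockdown comparison and −25.2 in a coding exon in the knockout comparison. NECTIN1 had adjacent intron tiles of 92.1 and 76.2 (72.0 and 55.0 in the mix) near the antisense gene USP2-AS1, 3 more knockdown tiles of 49.6, 100 and −92.3, and 4 knockout tiles from −100 to 100. NECTIN4 had 1 tile, −39.0 in a coding exon, in the knockout comparison.

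The knockdown and knockout comparisons share no library, and 18 tiles of 14 genes were listed in both. These were 14.0% of the knockdown tiles and 26.1% of the knockout tiles of the 52 genes, where 16.3% and 29.5% of all listed tiles were in both. The direction was the same at 6 tiles and opposite at 12. The same-direction share was therefore 33.3% (95% Wilson interval 16.3 to 56.3, counting error only, and tiles of 1 gene are not independent), where 52.6% of the 8345 such tiles of the series had the same direction. Hypermethylated in both were the tiles of CLDN6 and CLDN9, CLDN17 (at 2 tiles) and CTNNA1. Hypomethylated in both were those of MARVELD2 and AFDN. Without the 9 genes longer than 200 kb, 5 tiles, or 50%, had the same direction. That is a share of few tiles, without an interval, and the 52.6% of the series still includes long genes. Of the 12 tiles of opposite direction, 5 were in CTNND2 and 2 in CTNNA2, and 1 each was at CLDN1 and CLDN16, TJP3, CGNL1, CRB2 and LLGL2.

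The differences bound the levels at the largest reversal, for the reading of signs used here. At an intron tile of CTNND2 (chr5:11798001-11799000, 18 CpGs) the knockdown difference was 96.0 and the knockout difference −98.3. These put sh-LY75-S at 96.0% methylation or more and LY75-R-S at 98.3% or more, and shC-S at 4.01% or less and LY75-KO-S at 1.67% or less. A coding exon tile of CTNNA2 had −100 and 53.7, and an intron tile of LLGL2 had 63.2 and −50.0, the only other tiles of these genes with at least 50 points in both. In each of these 3, sh-LY75-S and the LY75-R-S cells made from it stood on one side, and shC-S and LY75-KO-S on the other. That follows from the opposite signs, and the part of the clones' descent in it was not tested. With the signs of the knockout comparison turned, LY75-KO-S and LY75-R-S would change places in these bounds, LY75-KO-S would stand with sh-LY75-S, and these 3 tiles would have the same direction. In the reading used here, no tile had at least 50 points in the same direction in both.

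**Figure D4:**
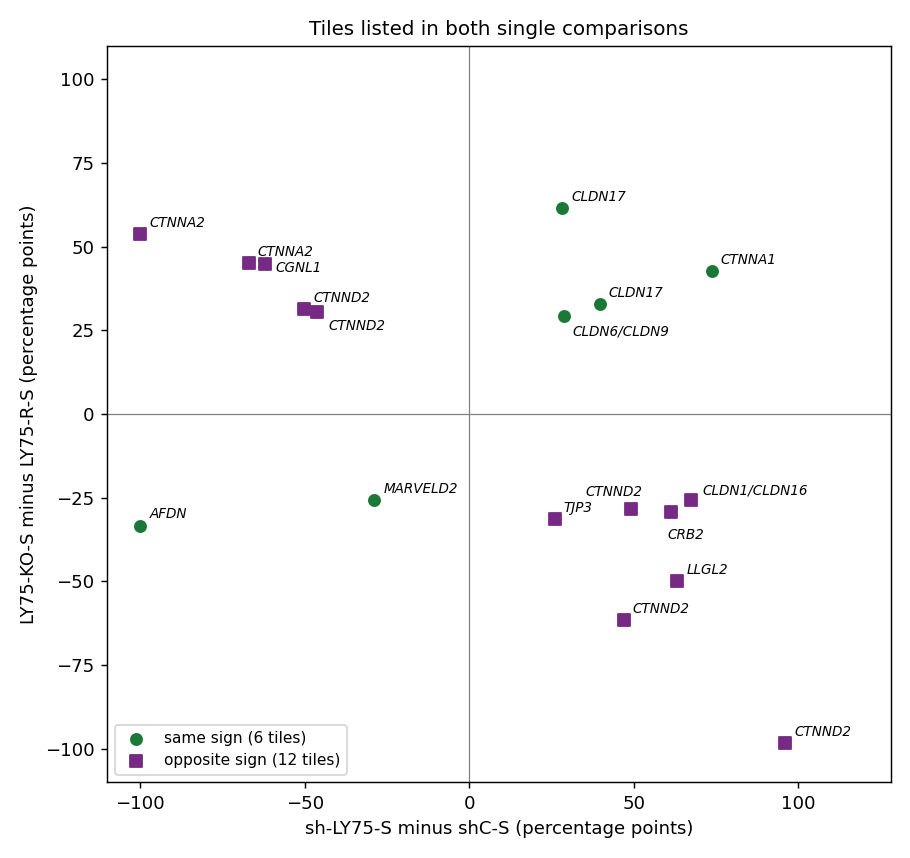
Difference in the knockdown comparison (x axis) against the difference in the knockout comparison (y axis), both in percentage points, for the 18 tiles listed in both, with the gene beside each point. Circles are the 6 tiles of the same sign and squares the 12 of opposite sign, with CTNND2 at 96.0 and −98.3 in the lower right corner.

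A list of 38 other junction and polarity genes was counted in the same way. In the knockdown comparison 28 of the 38 (73.7%) had a tile, against 60.3% of all protein-coding genes, and 14 had one within 2 kb of a start site, against 30.2% of all. Of their tiles 73 were hypermethylated and 47 hypomethylated (60.8% hypermethylated, against 64.7% of all listed tiles). The knockout comparison had 19 genes (50%, against 46.8%), 7 with a promoter tile (against 14.2% of all genes), and 35 hypermethylated and 37 hypomethylated tiles (48.6%, against 54.7%). In the mixed comparison there were 23 genes (60.5%, against 38.3%), 8 with a promoter tile (against 15.2% of all genes), and 33 and 24 tiles (57.9%, against 65%). The following were named after their values had been seen. ILDR1, which recruits tricellulin to cell corners, had 90.4 points at its start site in the knockdown comparison and 25.3 in the mix, and a tile of 25.2 far into the gene in the knockout comparison. JUP (plakoglobin) had −62.0 at a start site in the knockout comparison, and 38.3 (26.7 in the mix) and 100 farther into the gene in the knockdown comparison.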

How the data were processed

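RRBS was made on 1 library each of 4 SKOV3 clones. Per the labels, reads were trimmed with Trim Galore 0.4.1 and aligned to hg19 with Bismark 0.16.1, and methylKit compared the libraries in tiles of 1000 bp. The coverage minimum and how libraries entered the mix were not given in the sources used here. The authors deposited 3 tables of the tiles past 25 points, each with a difference in percent methylation, a p-value and a q-value. All columns hold the authors' comparisons of libraries, and they were used because no other values were at hand. RRBS reads can be copies of a single molecule, which makes such q-values too small.

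The genes, gene lists and groups were chosen with earlier results of these data known. Genes were chosen for fuller description by a promoter tile of at least 50 points or by a tile in both single comparisons. In the latter case the difference had to reach 50 points in 1 of them. CLDN5 and EPCAM were added. Not every value is printed, for example at CTNNA2, CTNND2, CRB2 and LLGL2. Tiles were assigned with GENCODE release 44 and tested on simulated data against a direct search. A promoter tile lies within 2 kb of a start site of a basic transcript. No test was made. Shares have 95% Wilson intervals. Scripts ran under Python 3.11.15 with pandas 2.3.3 and numpy 2.4.6, sequences were read with pysam 0.24.0, and figures were drawn with matplotlib 3.10.9. Other flanks, thresholds, start sites and overlaps were tried. The upstream sequences of a pair of promoters and the values of 1 gene of the list of 38 are not reported here.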

Additional observations from a re-analysis of the deposited data

Results flagged for a closer look

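At 12 tiles the E clone was higher in one comparison of single clones and lower in the other, each with 1 library a clone, so the difference between the comparisons was not tested. In sh-LY75-S against shC-S, 7 of them were hypermethylated: CLDN1 and CLDN16 by 67.5 points, TJP3 by 25.9, CRB2 by 61.2, LLGL2 by 63.2, and CTNND2 by 47.0, 49.0 and 96.0 at 3 tiles. In LY75-KO-S against LY75-R-S the same tiles had −25.6, −31.3, −29.3, −50.0, −61.5, −28.3 and −98.3. The other 5 were hypomethylated in sh-LY75-S: CGNL1 at −62.2, CTNNA2 at −67.1 and −100, and CTNND2 at −50.2 and −46.2. In the knockout comparison these had 44.7, 45.2, 53.7, 31.4 and 30.6.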

How the results depend on the processing

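Of 83 recomputed values, 65 stayed within the limits set for them, among them all under a flank of 2 or 10 kb, an overlap of at least 500 bp, or a window of 1 kb around start sites. With differences of at least 50 points only, the knockdown comparison held 73 tiles and 15 genes with a promoter tile. The knockout comparison then held 22 tiles in 14 genes and 0 genes with a promoter tile. The mix held 9 tiles in 8 genes and 2 genes with a promoter tile. Without this threshold the knockdown, knockout and mixed comparisons held 129, 69 and 41 tiles. Over all listed tiles of the series, 53.2%, 37.5% and 21.6% had at least 50 points in the same order. Genes with such a promoter tile were not counted over all protein-coding genes. Only 3 tiles had at least 50 points in both single comparisons, and 0 of them (0%) had the same direction. With q-values of at most 1e-10 the knockout comparison held 40 tiles and 5 genes with a promoter tile, and with canonical start sites also 5. Without genes over 200 kb the tables held 85, 33 and 27 tiles, and 5 tiles (50%) had the same direction in both. Reading the knockout comparison in the opposite order, an alternative added after the data were seen, gave 12 tiles (66.7%) of the same direction. The share of the series turns as well: the 52.6% of 8345 tiles counted as same direction would then be of opposite direction. No paired analysis was possible because each clone had 1 library. Coverage could not be varied, and depth limits what was listed by an unknown amount. A gene without a tile cannot be called unchanged.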
